A study of Mus musculus with 12 samples.

Results

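The genes described here encode the respiratory chain and the ATP synthase of the mouse: every symbol of the count table that names a subunit of complex I (Nduf), complex II (Sdh), complex III (Uqcr and Cyc1), complex IV (Cox4 to Cox8), complex V (Atp5) or one of the proteins encoded by mitochondrial DNA (mt-Nd, mt-Cytb, mt-Co and mt-Atp). They were chosen by name alone, and they make up 106 of the 31017 symbols in the table. Of these, 93 lie in the nuclear genome and 13 in the mitochondrial genome. The nuclear genes comprise 36 for complex I, 8 Ndufaf assembly factors of complex I, 4 for complex II, 9 for complex III, 20 for complex IV and 16 for complex V. The Ndufaf factors are not subunits, and Ndufa4 was counted with complex IV, where its protein sits despite its name.

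RNA came from the mouse mammary tumour line 4T1, kept in gels of collagen I in medium with 2% serum. There were 4 groups of 3 libraries: cells given Cas9 and an ETV4 guide with FGF, cells given Cas9 and a control guide with FGF, cells with the ETV4 guide without FGF, and cells with the control guide without FGF. FGF stands for FGF10 at 25 ng/ml together with FGF2 at 40 ng/ml over 4 days, and all groups received Cas9. ETV4 is a transcription factor of the ETS family that acts downstream of FGF receptors in many tissues. The names of the 6 knockout libraries share an added tag of unstated meaning, and no label tells a clone from a mixed population, so that clone and genotype cannot be told apart. Collagen concentrations of 1.2 and 2.4 mg/ml are named without a key to libraries. Nor is it stated that replicates were independent cultures, and p-values therefore reflect only how much these libraries differ, possibly for technical reasons.

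Library totals ran from 18229429 to 23193244 counts. Etv4 itself was at 113 to 119 CPM (counts scaled to a common library size) in knockout cells with FGF, against 154 to 173 in control cells with FGF (log2 fold change -0.51, edgeR adjusted p = 0.00204). Without FGF it was at 116 to 159 CPM in knockout cells and at 162 to 168 CPM in control cells (log2 fold change -0.35, edgeR adjusted p = 0.0173), or -0.51 (edgeR adjusted p = 1.14e-07) without knockout replicate 2. Loss of the protein was not measured. The highest knockout value without FGF, 159 CPM, came from replicate 2. That library also stood apart on the second principal component of all genes, which held 10.4% of the variance, while the first held 71.4% and separated knockout from control libraries. Cytosolic ribosomal protein genes took 6.74% of its counts, against 4.75% to 5.89% in the other 11 libraries. Counts of genes called are therefore given with and without this library. All 5 epithelial markers (Krt8, Krt18, Krt7, Epcam and Cdh1) were detected. Their sum was 3887 to 4014 CPM in knockout cells with FGF, against 4700 to 5275 in control cells with FGF, and 4271 to 6097 in knockout cells against 4607 to 4768 in control cells without FGF, and its part in the results was not tested. The fibroblast markers Pdgfrb, Dcn, Lum and Thy1, the leukocyte markers Adgre1 and Cd3e and the endothelial marker Kdr had no count in any library. The summed leukocyte markers were at 9.07 to 9.94 CPM in knockout cells with FGF, against 6.72 to 7.81 in control cells with FGF. Without FGF they were at 9.2 to 11.5 CPM against 5.73 to 9.35, overlapping ranges. Pdgfra, the only fibroblast marker with counts, was at 12 to 15.7 CPM in knockout cells with FGF, against 7.83 to 11 in control cells with FGF. Without FGF it was at 8.39 to 13.6 CPM against 9.51 to 11.2, again overlapping.

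The respiratory chain passes electrons from NADH and succinate to oxygen. Complexes I and II hand them to ubiquinone, complex III to cytochrome c and complex IV to oxygen, and complexes I, III and IV pump protons that drive the ATP synthase, complex V. Its subunits come from separate genomes: most are transcribed in the nucleus and imported, whereas a small set of core subunits is transcribed inside the mitochondrion from long polycistronic RNAs that are cut at the tRNAs between the genes. The heavy strand of mitochondrial DNA serves all of these genes other than mt-Nd6, which is read from the opposite strand.

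The table did not resolve all mitochondrial genes. Along the mitochondrial genome, mt-Nd1, mt-Nd2, mt-Co1, mt-Nd4, mt-Nd5, mt-Nd6 and mt-Cytb had between 580 and 83895 counts in a library. The stretch of 6 consecutive genes between mt-Co1 and mt-Nd4 had 1 to 29. These are mt-Co2 (7 to 24 counts) and mt-Co3 (8 to 29 counts) of complex IV, mt-Atp6 (9 to 21 counts) and mt-Atp8 (1 to 8 counts) of complex V, and mt-Nd3 (2 to 21 counts) and mt-Nd4l (1 to 7 counts) of complex I. In the mm10 genome with the GENCODE vM21 annotation, 5 of these 6 genes have an annotated unprocessed pseudogene on the minus strand of chromosome 1, in a run from 24611535 to 24616197. The copies Gm28661 of mt-Co2, Gm10925 of mt-Atp6, Gm28437 of mt-Co3 and Gm10222 of mt-Nd4l were identical to the gene over 681, 678, 783 and 294 aligned bases. Gm28438 matched mt-Nd3 at 344 of 345 bases. No annotated copy was matched for mt-Atp8, and none of the copies is a row of the count table. How reads that match more than one place were counted is not given in the sources used here, and its part in the low counts was not tested.

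To show how alike gene and copy are, the first 61 bases of mt-Nd3 and of its copy are printed with the only differing base in capitals. Counted from 1 at the 5′ end of the gene, it is T3C.
mt-Nd3: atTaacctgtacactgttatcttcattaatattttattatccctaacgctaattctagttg
Gm28438: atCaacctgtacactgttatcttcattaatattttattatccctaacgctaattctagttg

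The same run of copies reaches into genes on both sides of the stretch. Gm28439 matched mt-Nd4 over 876 identical bases, 63.6% of that gene, and Gm29216 matched mt-Co1 over 31.3% of its length with a single mismatch, A1066T. No copy was matched for mt-Nd1, mt-Nd2, mt-Nd5, mt-Nd6 and mt-Cytb, so the comparisons between groups rest most directly on those genes. The counts of mt-Nd4 and mt-Co1 cover an unknown part of each gene, and levels per kilobase across the mitochondrial genome are not a measure of subunit abundance. Libraries were made from polyA RNA, and mt-Nd6 RNA is known to carry little or no polyA tail.

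**Figure D1:**
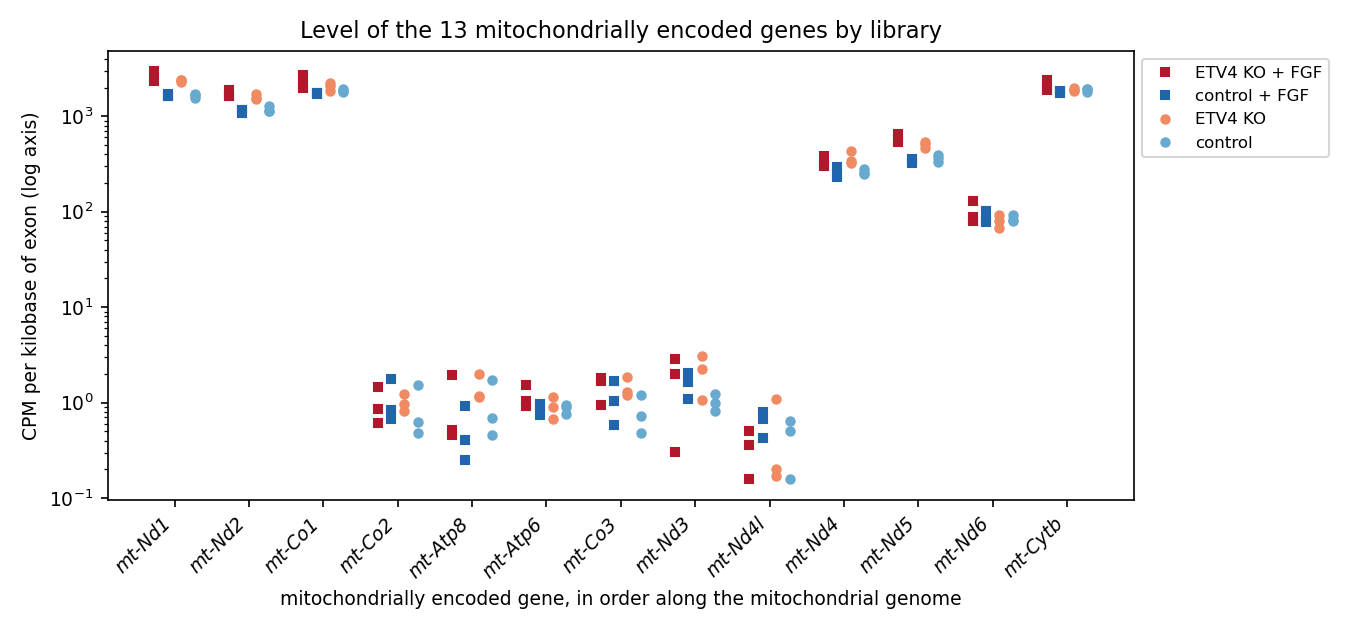
Level of each of the 13 mitochondrially encoded genes in every library, as CPM per kilobase of exon on a log axis, with genes in order along the mitochondrial genome and 1 point per library. The 6 consecutive genes from mt-Co2 to mt-Nd4l sit far below their neighbours in all 4 groups, and the knockout points of mt-Nd1, mt-Nd2 and mt-Nd5 sit above the control points.

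Of the 7 complex I genes of the mitochondrial genome, 4 were higher in knockout cells both with and without FGF. These were mt-Nd1, mt-Nd2, mt-Nd4 and mt-Nd5, while mt-Nd6 and mt-Nd3 passed the test in neither and mt-Nd4l was not tested. Outside complex I, mt-Co1 was higher in knockout than in control cells with FGF, and mt-Cytb passed in neither condition. Higher, lower, rose and fell refer to knockout against control cells in the same medium, unless FGF is compared with no FGF. In bulk RNA a change in the number of cells of a type and a change in RNA per cell cannot be told apart. A gene is called here at a Benjamini-Hochberg adjusted p under 0.05 in edgeR's quasi-likelihood test over the 12079 genes tested, and each adjusted p of a gene is from that test. Of the 13 mitochondrial genes, 11 passed the filter on low counts. With FGF 5 of the 11 were higher and 0 lower in knockout cells, where 40.3% of all genes tested were called and 18% were higher. Without FGF 4 were higher and 0 lower, where 45.8% of all genes were called and 22.5% were higher. Leaving out knockout replicate 2 gave 6 with FGF and 5 without, where 58.6% and 54.5% of all genes were called.

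mt-Nd1 (mitochondrial genome, 2751 to 3707) encodes a core subunit of the membrane arm of complex I that lines the ubiquinone channel. In replicates 1 to 3 it was at 2411, 2255 and 2843 CPM in knockout cells with FGF, against 1564, 1577 and 1630 in control cells with FGF. In medium without FGF it stood at 2283, 2287 and 2194 CPM in knockout cells and at 1654, 1583 and 1501 in control cells. All 6 knockout libraries lay above all 6 control libraries, and knockout replicate 2 lay among its group. The log2 fold change was 0.65 with FGF (SE 0.08, adjusted p = 2.9e-05) and 0.51 without (SE 0.08, adjusted p = 0.000192), or 0.50 without knockout replicate 2.

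mt-Nd5 (11742 to 13565) encodes the distal proton-pumping subunit of the same arm. It was at 982, 1050 and 1182 CPM in knockout cells with FGF, against 647, 590 and 641 in control cells with FGF. Without FGF the values were 975, 840 and 932 CPM in knockout cells and 717, 666 and 609 in control cells. Again no knockout library overlapped with a control library. The log2 fold change was 0.78 with FGF (SE 0.09, adjusted p = 1.62e-05) and 0.46 without (SE 0.09, adjusted p = 0.000851), or 0.52 without knockout replicate 2.

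mt-Nd2, another proton-pumping subunit, averaged 1783 ± 147 CPM in knockout cells with FGF and 1184 ± 48.4 CPM in control cells with FGF (SD, n = 3 each). Without FGF it averaged 1663 ± 107 CPM in knockout cells and 1223 ± 90.3 CPM in control cells (SD, n = 3 each). It rose by 0.59 (SE 0.08) and 0.44 (SE 0.08) on the log2 scale, the second being 0.39 without knockout replicate 2, and groups did not overlap. mt-Nd4, the third subunit of that kind, averaged 465 ± 55.7 CPM in knockout cells with FGF and 353 ± 42.8 CPM in control cells with FGF (SD, n = 3 each), and without FGF 503 ± 80.6 CPM in knockout cells and 359 ± 25.1 CPM in control cells (SD, n = 3 each). Its log2 fold changes were 0.40 (SE 0.12, edgeR adjusted p = 0.0196) and 0.49 (SE 0.12, edgeR adjusted p = 0.00562), the second being 0.35 without knockout replicate 2. The call of mt-Nd4 with FGF was lost without control replicate 1 with FGF, control replicate 3 with FGF or knockout replicate 3 with FGF (edgeR adjusted p = 0.0677, 0.0881 and 0.101).

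For mt-Co1, mt-Cytb and mt-Nd6 fewer tests passed. mt-Co1, the catalytic subunit of complex IV, was at 3405, 3085 and 4136 CPM in knockout cells with FGF, against 2708, 2670 and 2723 in control cells with FGF (log2 fold change 0.39, SE 0.10, edgeR adjusted p = 0.00604). Without FGF it was at 3435, 2851 and 3203 CPM in knockout cells and at 2992, 2864 and 2745 in control cells, where the groups overlapped through knockout replicate 2 (log2 fold change 0.14, SE 0.10, edgeR adjusted p = 0.252). Leaving that library out gave 0.21 (edgeR adjusted p = 0.0177). mt-Cytb, the cytochrome b of complex III, was at 2178, 2226 and 2736 CPM in knockout cells with FGF, against 2060, 2096 and 1998 in control cells with FGF (log2 fold change 0.21, SE 0.08, edgeR adjusted p = 0.0525), which passed without knockout replicate 2 (edgeR adjusted p = 0.00346). Without FGF it was at 2155, 2278 and 2113 CPM in knockout cells and at 2225, 2196 and 2052 in control cells, overlapping groups with a log2 fold change of 0.02 (95% interval -0.14 to 0.18), or -0.02 without knockout replicate 2. mt-Nd6 had log2 fold changes of 0.20 (SE 0.17) with FGF and -0.10 (SE 0.17) without FGF, or 0.01 without knockout replicate 2, at 51.5 ± 13.8 CPM in knockout cells with FGF and 44.8 ± 6.8 CPM in control cells with FGF, and at 41.4 ± 6.36 CPM in knockout cells and 44.3 ± 3.53 CPM in control cells (SD, n = 3 each).

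**Figure D2:**
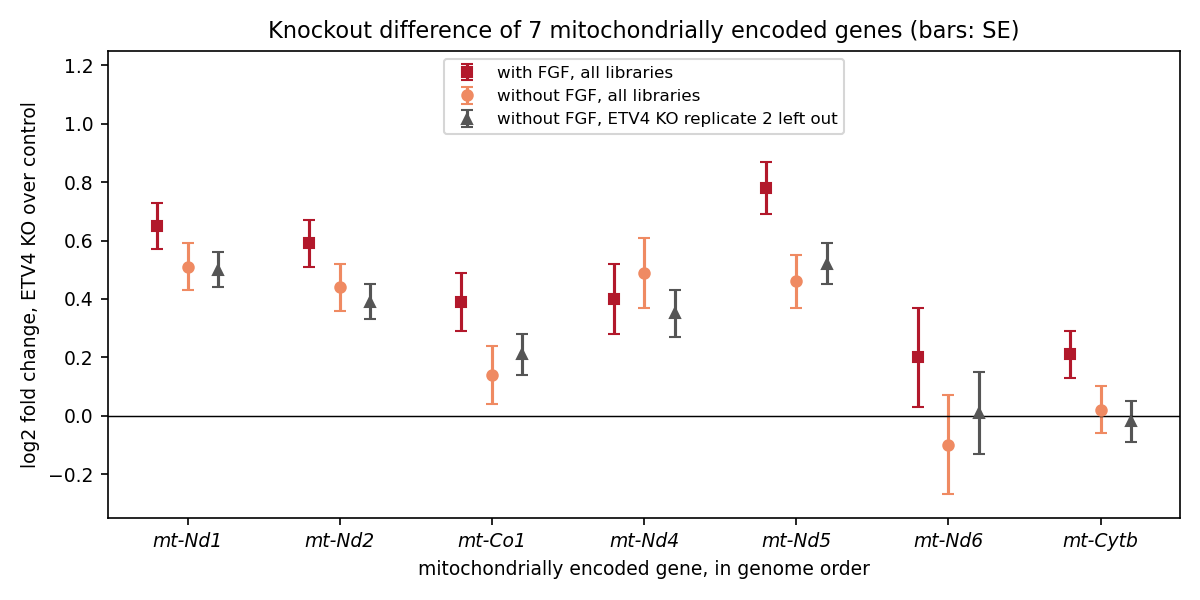
Knockout over control log2 fold change of the 7 mitochondrial genes outside the stretch with few counts, with FGF, without FGF, and without FGF when knockout replicate 2 is left out; bars are the SE. The values of mt-Nd1, mt-Nd2, mt-Nd4 and mt-Nd5 lie between 0.35 and 0.78, and those of mt-Cytb and mt-Nd6 between -0.10 and 0.21.

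The ratio of a pair of genes within a library does not depend on the scaling of libraries. The pairs shown were chosen after their fold changes were seen. The ratio of mt-Nd1 to mt-Cytb was 1.11, 1.01 and 1.04 in knockout cells with FGF, against 0.759, 0.752 and 0.816 in control cells with FGF. Without FGF it was 1.06, 1.00 and 1.04 in knockout cells and 0.743, 0.721 and 0.732 in control cells. Groups did not overlap in either condition. The difference was 0.44 on the log2 scale with FGF and 0.50 without, each with a two-sided exact permutation p = 0.1, the smallest value that 3 libraries against 3 can give. The ratio of mt-Nd5 to mt-Cytb differed by 0.57 and 0.45 on the same scale, and that of mt-Nd5 to mt-Nd6 by 0.59 and 0.57, with exact permutation p = 0.1 in each. The Benjamini-Hochberg adjusted exact permutation p of these 6 differences was 0.171 over the 12 ratio comparisons computed, which include those between FGF and no FGF. In control cells the ratio of mt-Nd1 to mt-Cytb also separated FGF from no FGF, by 0.08 on the log2 scale. It had the same exact permutation p, before and after adjustment.

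Summed over the 13 genes, mitochondrial RNA stood at 11800 ± 1442 CPM in knockout cells with FGF and 8553 ± 28.8 CPM in control cells with FGF, and at 10726 ± 237 CPM in knockout cells and 8897 ± 441 CPM in control cells without FGF (SD, n = 3 each). The highest sum, 13449 CPM, was that of knockout replicate 3 with FGF. The 93 nuclear genes followed another order. They summed to 9273, 9394 and 9740 CPM in knockout cells with FGF, against 8817, 10330 and 9111 in control cells with FGF. Without FGF they summed to 9516, 13422 and 10057 CPM in knockout cells and to 8486, 8767 and 9558 in control cells. Knockout replicate 2 was far above every other library, and the other 11 ran from 8486 to 10330 CPM, with groups overlapping.

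**Figure D3:**
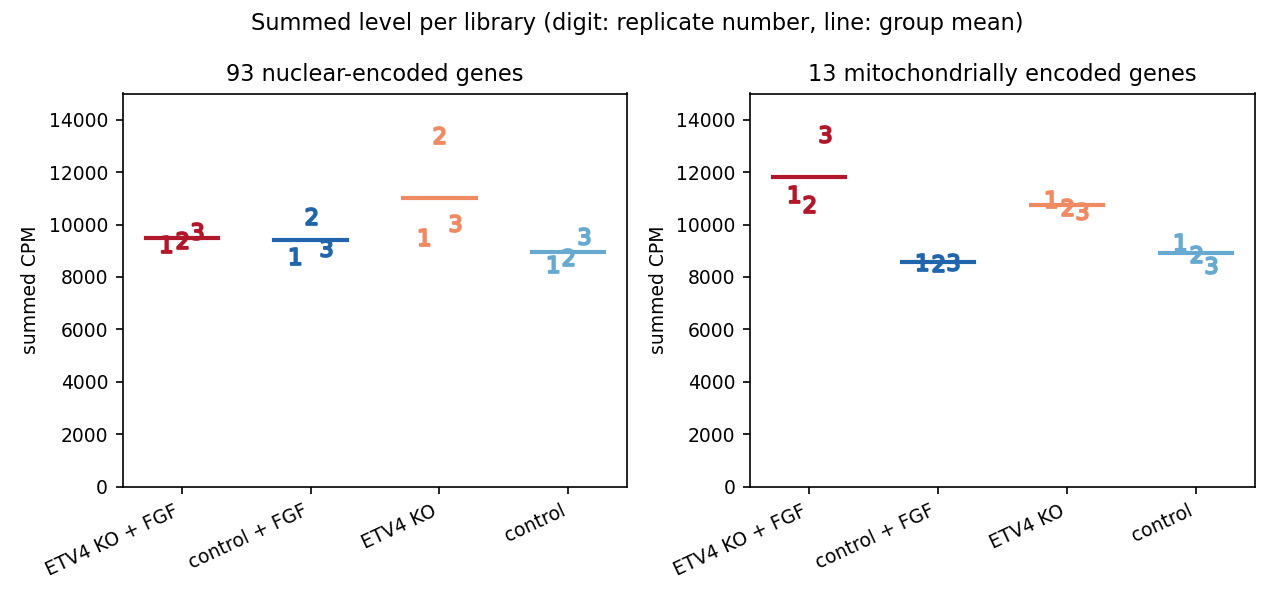
Summed CPM of the 93 nuclear genes and of the 13 mitochondrial genes in each library, with digits for the replicate number and lines for group means. Knockout replicate 2 without FGF is alone at 13422 CPM among the nuclear sums, whereas its mitochondrial sum of 10675 CPM lies among its group, and all knockout libraries lie above all control libraries in the mitochondrial sums.

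The level per kilobase of exon divides by the length of all annotated exons of a gene, which can exceed its longest transcript. These lengths are 4237 against 1916 bases for Atp5b, 1550 against 765 for Cox4i1 and 619 against 550 for Cox8a. Ranks of genes by this level therefore depend on the length used, and ranks by transcript length are not given here. Among nuclear genes the level was highest in control cells without FGF for Cox4i1 (359 ± 35.3), the regulatory subunit of complex IV. Cox8a (318 ± 43.5) of the same complex followed, lower by less than its own SD (SD, n = 3 each). In complex V the level was highest for Atp5b (283 ± 12.7), the catalytic β subunit of the ATP synthase (SD, n = 3). The highest of complex I was Ndufa8 at 120 ± 4.89, of complex III Uqcr11 at 87.9 ± 16.1, and of complex II Sdhd, a membrane anchor, at 79.7 ± 2.63 (SD, n = 3 each). The Ndufaf assembly factors were lower, with Ndufaf8 highest at 15.4 and a median over the 8 of 5.73, against a median of 36.7 for complex I subunits. The forms of subunits known from heart, muscle, lung or testis were nearly silent, and so was Ndufa4l2, a paralogue of Ndufa4. Cox4i2, Cox7b2, Cox6b2, Cox7a1, Cox8b, Cox8c and Ndufa4l2 had 9 counts or fewer over all 12 libraries and did not pass the filter on low counts. Their partners Cox4i1, Cox7b, Cox6b1, Cox7a2, Cox8a and Ndufa4 were all tested. Cox6a2, the heart and muscle form of Cox6a1, had 4, 5 and 6 counts in knockout cells with FGF and 3, 3 and 4 in knockout cells without FGF, against 0 in all 6 control libraries. It did not pass the filter either and was not tested. With these 8 genes left out, 85 nuclear genes were tested.

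Without FGF 33 of the 85 nuclear genes (38.8%) were higher in knockout cells and 0 lower, a smaller share called than the 45.8% of all genes. Their median log2 fold change was 0.29, against 22.5% higher, 23.3% lower and a median of -0.01 over all genes tested. Without knockout replicate 2 the counts were 31 higher and 4 lower and the median was 0.14, against 26.3% higher and 28.2% lower of all genes. Of the calls, 29 higher genes were the same with and without it. With FGF 2 of the 85 were higher and 6 lower, with a median of 0.01, against 18% higher and 22.2% lower of all genes. When knockout replicate 2, which is in neither group of that comparison but enters the common estimate of spread, was left out, 12 were higher and 19 lower, against 28.1% and 30.5% of all genes, at a median of 0.01. Correcting each library for its trend with exon length and GC content turned the split with FGF to 32 higher and 4 lower, against 33.6% higher and 19.4% lower of all genes, and gave 59 higher and 0 lower without FGF, against 36.8% and 19.3% of all genes.

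**Figure D4:**
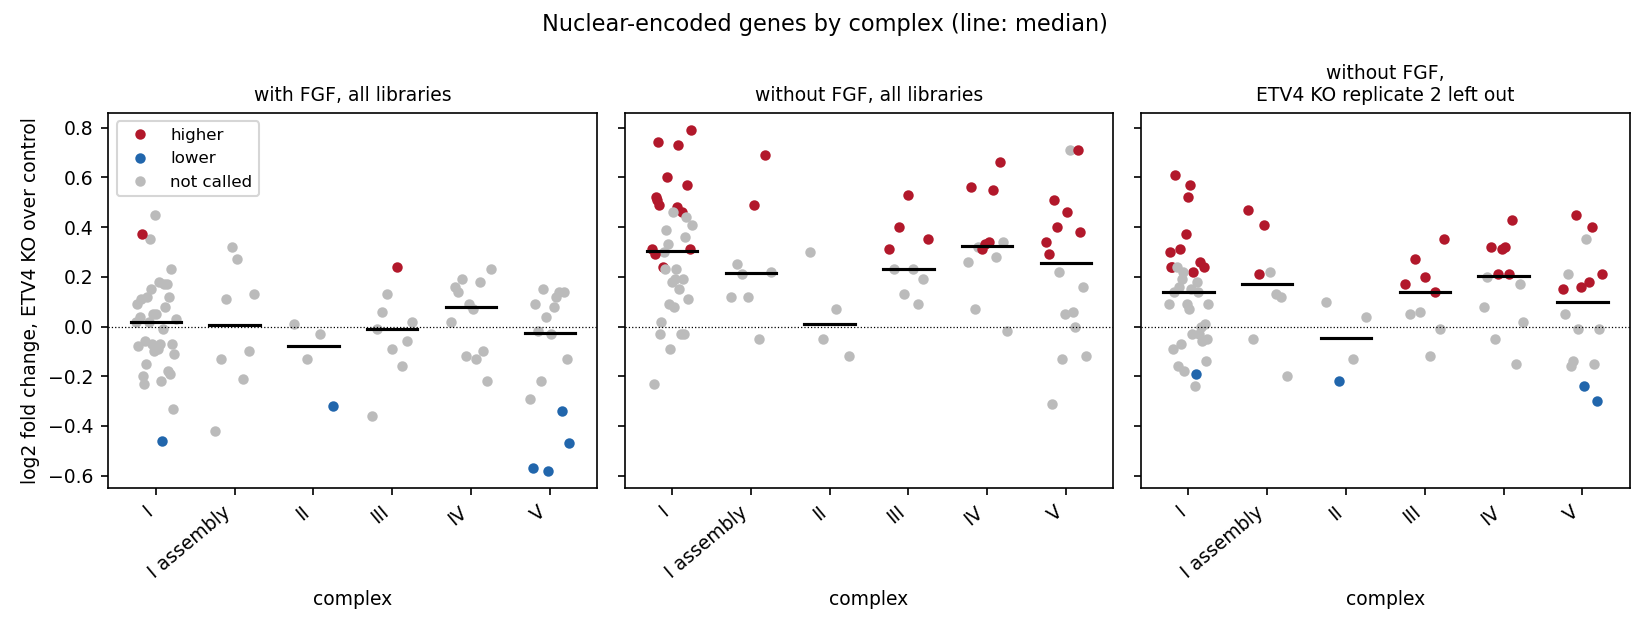
Knockout over control log2 fold change of each tested nuclear gene by complex, with FGF, without FGF, and without FGF when knockout replicate 2 is left out; 1 point per gene, red where higher, blue where lower, grey where not called, with a line at the median. Without FGF the medians of complexes I, III, IV and V lie between 0.23 and 0.33 and fall to between 0.10 and 0.20 without that library, and with FGF the medians lie between -0.08 and 0.08.

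By complex, 14 of 36 complex I genes, 2 of 8 Ndufaf factors, 0 of 4 complex II genes, 4 of 9 complex III genes, 6 of 12 complex IV genes and 7 of 16 complex V genes were higher without FGF. Leaving out knockout replicate 2 made these counts 11, 3, 0, 5, 6 and 6, with 1 gene of complex I, 1 of complex II and 2 of complex V lower. The number of these genes called without FGF varied with the library left out. It was 16 without control replicate 1, 15 without control replicate 2 and 51 without knockout replicate 1. The share of all genes called in those fits is not given here, so whether these counts follow it is not known. With FGF, 1 gene of complex I and 1 of complex III were higher, and 1 of complex I, 1 of complex II and 4 of complex V were lower.

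Among the nuclear genes of complex I the smallest adjusted p belonged to Ndufv2 (chromosome 17, 66078638 to 66101559), an iron-sulfur subunit of the module that takes electrons from NADH. It was at 145, 141 and 155 CPM in knockout cells with FGF, against 111, 127 and 104 in control cells with FGF. In the absence of FGF it stood at 165, 222 and 163 CPM in knockout cells and at 108, 111 and 112 in control cells. The groups did not overlap in either condition. It rose by 0.37 (SE 0.11, adjusted p = 0.0199) with FGF and by 0.73 (SE 0.11, adjusted p = 0.000194) without FGF on the log2 scale, or by 0.57 (SE 0.07) without knockout replicate 2. The call with FGF was lost without control replicate 1 or 3 or knockout replicate 3 of the FGF groups (adjusted p = 0.0656, 0.0876 and 0.075).

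Ndufb10 (chromosome 17, 24722060 to 24724478), an accessory subunit of the membrane arm, was at 79.5, 133 and 85.6 CPM in knockout cells and at 54.8, 55.1 and 62.5 in control cells without FGF (log2 fold change 0.79, SE 0.16, edgeR adjusted p = 0.00133). Without knockout replicate 2, which was well above the other knockout libraries, the log2 fold change was 0.52 (edgeR adjusted p = 4.58e-06). With FGF it was 0.35 (edgeR adjusted p = 0.101), with 68.5, 76.7 and 78.6 CPM in knockout cells against 55.2, 65.1 and 56 in control cells. Ndufa11, another accessory subunit of that arm, averaged higher in knockout cells without FGF by 0.60 on the log2 scale (SE 0.15) and by 0.37 without knockout replicate 2, and stood at 0.11 (edgeR adjusted p = 0.577) with FGF. Ndufc1, another membrane arm subunit, was lower in knockout cells with FGF, at 14.6 ± 1.48 CPM against 20.1 ± 2.65 CPM in control cells with FGF (log2 fold change -0.46, SE 0.15, edgeR adjusted p = 0.0266; SD, n = 3 each). That call was lost without 1 of 4 libraries of that comparison (edgeR adjusted p up to 0.114) and after the length and GC correction (0.0851). The assembly factors Ndufaf3 and Ndufaf5 were higher without FGF by 0.69 (SE 0.18) and 0.49 (SE 0.15) on the log2 scale, and by 0.47 and 0.41 without knockout replicate 2. The call of Ndufaf5 was lost without control replicate 2 (edgeR adjusted p = 0.0745).

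In complex II, which is wholly nuclear and pumps no protons, Sdhc was lower in knockout than in control cells with FGF. This ubiquinone-binding membrane anchor (chromosome 1, 171127165 to 171150603) was at 111, 103 and 105 CPM in knockout cells with FGF, against 130, 136 and 131 in control cells with FGF (log2 fold change -0.32, SE 0.08, edgeR adjusted p = 0.00723). In the absence of FGF it stood at 109, 134 and 111 CPM in knockout cells and at 130, 127 and 128 in control cells. Knockout replicate 2 was above the controls there and the other knockout libraries below them. The log2 fold change without FGF was -0.12 (SE 0.08, edgeR adjusted p = 0.238), and -0.22 (edgeR adjusted p = 0.00155) without that library. The call with FGF did not hold after the length and GC correction (edgeR adjusted p = 0.102).

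In complex III, Uqcrc2, a core protein of the matrix side (chromosome 7, 120635176 to 120659524), was at 132, 124 and 134 CPM in knockout cells with FGF, against 108, 113 and 109 in control cells with FGF. Without FGF it was at 132, 160 and 128 CPM in knockout cells and at 114, 110 and 114 in control cells. Knockout libraries lay above control libraries throughout. It rose by 0.24 with FGF (SE 0.08, adjusted p = 0.0374) and by 0.31 without (SE 0.08, adjusted p = 0.00886), on the log2 scale, the second being 0.20 without knockout replicate 2. The call with FGF was lost in 7 of the 12 fits that leave out a library (adjusted p up to 0.117), and 26.7% of its longest transcript is shared with the overlapping gene Pdzd9. Uqcr11, a small accessory subunit, and Cyc1, the cytochrome c1 that passes electrons to cytochrome c, were higher without FGF by 0.53 (SE 0.16) and 0.40 (SE 0.14), and by 0.35 and 0.17 without knockout replicate 2. With FGF they stood at 0.02 and 0.13 and were not called. The call of Uqcr11 without FGF was lost without control replicate 1 or 2 (edgeR adjusted p = 0.0757 and 0.0518). That of Cyc1 was lost without control replicate 1, 2 or 3 (edgeR adjusted p = 0.0653, 0.0753 and 0.0638).

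In complex IV no nuclear gene was called with FGF. Without FGF Cox8a, a small membrane subunit, was at 234, 402 and 296 CPM in knockout cells and at 169, 199 and 223 in control cells (log2 fold change 0.66, SE 0.16, edgeR adjusted p = 0.00555). The groups did not overlap, although knockout replicate 1 lay close to control replicate 3. Its log2 fold change was 0.43 without knockout replicate 2 (edgeR adjusted p = 0.000923). Cox6b1, a subunit that faces the intermembrane space, and Ndufa4 were higher by 0.55 (SE 0.14) and 0.33 (SE 0.09), and by 0.32 and 0.31 without that library. The call of Ndufa4 was lost without control replicate 1 (edgeR adjusted p = 0.0503). Cox4i1 was at 541, 892 and 588 CPM in knockout cells and at 517, 533 and 619 in control cells, overlapping groups with a log2 fold change of 0.28 (SE 0.16, edgeR adjusted p = 0.174). That value was 0.02 (SE 0.08) without knockout replicate 2.

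Complex V held genes called in each direction. Atp5g3, the gene of 1 of the precursors of the proton-carrying c ring, was at 395, 485 and 380 CPM in knockout cells and at 280, 282 and 321 in control cells without FGF, with no overlap (log2 fold change 0.51, SE 0.09, edgeR adjusted p = 0.000685). With FGF it was at 345, 352 and 352 CPM in knockout cells and at 302, 342 and 306 in control cells (log2 fold change 0.14, SE 0.09, edgeR adjusted p = 0.252). Atp5j2, a membrane subunit, and Atp5g2, another c ring precursor, were higher without FGF by 0.71 (SE 0.18) and 0.38 (SE 0.11), and by 0.45 and 0.21 without knockout replicate 2. With FGF the 4 lower genes were Atp5h, Atp5j, Atp5o and Atp5s. The first 3 encode subunits of the peripheral stalk, which holds the catalytic head still while the rotor turns, and Atp5s encodes the coupling factor B. At 47 to 115 counts in a library, Atp5s was lower in knockout than in control cells with FGF, by 0.58 on the log2 scale. Its call was lost without control replicate 1 or 2 or knockout replicate 1 or 3 of the FGF groups (edgeR adjusted p = 0.0731, 0.107, 0.121 and 0.0555). Nor did it hold after the length and GC correction (edgeR adjusted p = 0.0822).

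Atp5h (chromosome 11, 115415689 to 115419962) was at 98.3, 104 and 119 CPM in knockout cells with FGF, against 154, 180 and 143 in control cells with FGF (log2 fold change -0.57, SE 0.14, edgeR adjusted p = 0.00662). In medium without FGF its values were 104, 159 and 126 CPM in knockout cells and 130, 135 and 159 in control cells (log2 fold change -0.13, SE 0.14, edgeR adjusted p = 0.496). The groups without FGF overlapped, and without knockout replicate 2 the log2 fold change there was -0.30 (edgeR adjusted p = 0.0135). Atp5j (chromosome 16, 84827866 to 84835625) was at 87.4, 92.7 and 91.1 CPM in knockout cells with FGF, against 119, 136 and 120 in control cells with FGF (log2 fold change -0.47, SE 0.10, edgeR adjusted p = 0.00248). Without FGF its log2 fold change was -0.12 (SE 0.10, edgeR adjusted p = 0.351), or -0.24 (edgeR adjusted p = 0.00619) without knockout replicate 2. Atp5o fell by 0.34 (SE 0.13, edgeR adjusted p = 0.0489) with FGF, and that call was lost without any 1 of the 9 libraries other than the knockout libraries without FGF (edgeR adjusted p up to 0.155). Atp5f1, the remaining stalk subunit by name, stood at -0.13 (SE 0.08, edgeR adjusted p = 0.232). Of the transcript of Atp5h 34.0% is shared with Gm10250 and of that of Atp5j 29.7% with Gabpa, so these counts carry that uncertainty.

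Only 2 nuclear genes, Ndufv2 and Uqcrc2, were called higher in both conditions with all libraries in the fit, and 0 were called lower in both. The share of all genes called the same way in both conditions was not computed, so whether such counts are many or few is not known. In single conditions, 40.3% of all genes were called with FGF and 45.8% without, or 58.6% and 54.5% without knockout replicate 2. Without knockout replicate 2 there were 11 higher in both (Atp5a1, Atp5g3, Cox6a1, Ndufa1, Ndufa4, Ndufb10, Ndufb8, Ndufb9, Ndufc2, Ndufv2 and Uqcrc2) and 4 lower in both, which included Atp5h, Atp5j and Sdhc, with 0 called in opposite directions. The library that was left out deviated from its group in a graded way. Among 84 nuclear genes with a gene model, 81 were above the mean of the other knockout libraries in it, by a median of 0.44 on the log2 scale, and the deviation had a Spearman correlation across these genes of 0.654 with GC content and -0.208 with exon length. Of the 11956 tested genes with a gene model, 6644 were above that mean, and the median deviation over all of them was 0.07. The same correlations across them were 0.511 and -0.48. Genes are not independent replicates, and no p is given. Leaving it out moved the log2 fold change without FGF most for Ndufb7, a complex I accessory subunit (0.46 with the library and 0.09 without it), Atp5k, a membrane subunit of the ATP synthase (0.71 and 0.35), and Ndufb9, another complex I accessory subunit (0.57 and 0.24). In each of the 4 groups the library with the highest nuclear share of counts was also the one with the highest share of ribosomal protein genes, and the part of this in the results was not tested. Nuclear respiratory chain genes were short, with a median exon length of 1772 bases against 4390 bases over all genes tested, at a median GC content of 49.9% against 49.8%.

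FGF itself left these genes without a call. In knockout cells 0 of 85 nuclear and 0 of 11 mitochondrial genes were called between FGF and no FGF, where 2.42% of all genes were, and in control cells 0 and 0, where 0.488% were. DESeq2 also called 0 in each. At an unadjusted p under 0.05 edgeR had 23 nuclear genes and 1 mitochondrial gene in knockout cells, where 19.7% of all genes passed, and 0 of either in control cells, where 5.96% did. Without knockout replicate 2 the numbers in knockout cells were 4 and 4, where 21% of all genes passed. Those in control cells were 4 and 0, where 14.7% of all genes passed. Leaving out knockout replicate 2 again gave 0 calls among these genes, where 7.76% of all genes were called in knockout cells, 2.8% in control cells and 0.981% for the interaction described next. The median log2 fold change of nuclear genes between FGF and no FGF was -0.22 in knockout cells and 0.08 in control cells. Leaving out knockout replicate 2 brought the first to -0.05. Over all genes tested the medians were -0.02 and 0.00. They were -0.22 and 0.08 for cytosolic ribosomal protein genes, and -0.19 and 0.09 for those of the mitochondrial ribosome. The interaction, which tests whether the knockout difference itself changed with FGF, called 0 nuclear and 0 mitochondrial genes by edgeR and by DESeq2, where edgeR called 0.0166% of all genes. At an unadjusted p under 0.05 in edgeR, 11 nuclear genes and 1 mitochondrial gene passed, where 10.2% of all genes did. Without knockout replicate 2 these were 8 and 3, where 13.3% of all genes passed. The median interaction of nuclear genes was -0.31 on the log2 scale, and -0.15 without knockout replicate 2. Over all genes tested it was -0.02 with all libraries. For cytosolic ribosomal protein genes it was -0.32, and -0.12 without that library. For those of the mitochondrial ribosome it was -0.26, and -0.13 without that library. A difference between conditions in the knockout effect on a respiratory chain gene was thus not shown, and mt-Nd5 had the smallest unadjusted p of the mitochondrial genes with an interaction of 0.31 (SE 0.12, edgeR adjusted p = 0.482).

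The fold changes of nuclear genes were related to those of the genes around them. For each of 84 genes, up to 25 of the nearest tested genes on each side that are not themselves respiratory chain genes were taken (fewer near the end of a chromosome for 7 genes, with 28 to 43 in all), and their median fold change was set beside that of the gene. Across the 84 the Pearson correlation was 0.604 with FGF and 0.579 without (Spearman 0.60 and 0.604), and 0.63 without FGF when knockout replicate 2 was left out. Neighbouring genes share neighbours, so this is a description. On chromosome 11, which also carries Etv4, the 5 genes had a median log2 fold change of -0.36 with FGF and 0 of 5 were positive, and the median over their neighbours was -0.42. Atp5h stood at -0.57 beside neighbours at -0.50, and Atp5j on chromosome 16 at -0.47 beside neighbours at -0.40. On chromosome 17 the 7 genes had a median of 0.12, with 6 of 7 positive, beside neighbours at 0.22. Ndufv2 there stood at 0.37 beside 0.29 and Ndufb10 at 0.35 beside 0.36. Sdhc on chromosome 1, at -0.32, had neighbours at -0.13, Ndufc1 on chromosome 3, at -0.46, had neighbours at -0.08, and Atp5s on chromosome 12, at -0.58, had neighbours at 0.24, in the opposite direction. The part of a change shared by whole chromosomal regions in the differences of single genes was not tested.

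**Figure D5:**
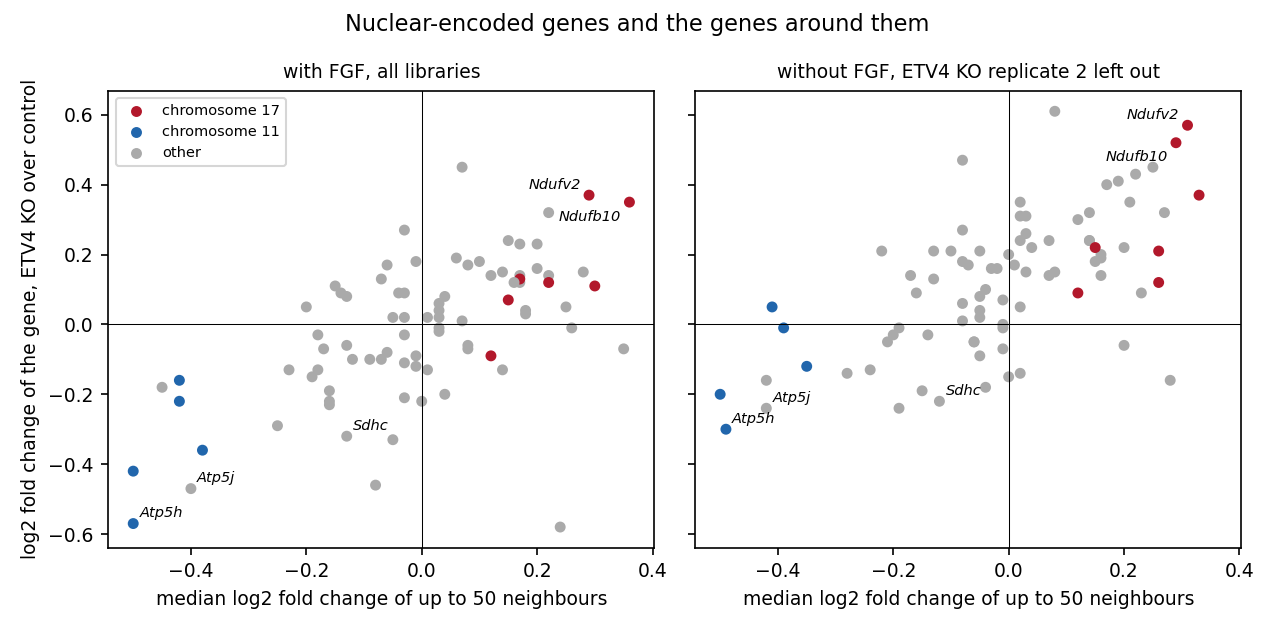
Knockout over control log2 fold change of 84 nuclear genes against the median of up to 50 tested genes around each, with FGF and all libraries in the fit, and without FGF when knockout replicate 2 is left out. With FGF the genes of chromosome 11 lie at the lower left, with Atp5h at -0.57, and those of chromosome 17 mostly at the upper right. The Pearson correlations are 0.604 and 0.63.

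Of the transcription factors known to control nuclear respiratory chain genes, the orphan nuclear receptor Esrra had the smallest adjusted p in both conditions. It averaged 88.2 ± 3.27 CPM in knockout cells with FGF and 49.1 ± 4.86 CPM in control cells with FGF, and 83.3 ± 14.4 CPM in knockout cells and 42.5 ± 4.67 CPM in control cells without FGF (SD, n = 3 each). It rose by 0.84 (SE 0.12) and 0.97 (SE 0.12) on the log2 scale, and by 0.83 without FGF when knockout replicate 2 was left out. Of the 12 regulators tested, 3 were higher and 0 lower with FGF, against 18% and 22.2% of all genes, and 3 higher and 1 lower without, against 22.5% and 23.3%. Without knockout replicate 2 these were 5 and 1 with FGF, against 28.1% and 30.5% of all genes, and 3 and 1 without, against 26.3% and 28.2%. With FGF, Nrf1, the factor NRF1 of nuclear respiratory genes, was higher in knockout than in control cells by 0.35 (SE 0.08). The coactivator Ppargc1b was higher in the same comparison by 0.61 (SE 0.20). Myc, and Gabpb1, the partner of the ETS factor GABPA, were higher in knockout cells without FGF by 0.33 (SE 0.07) and 0.29 (SE 0.08). Gabpa itself was at -0.43 without FGF (SE 0.16, edgeR adjusted p = 0.046) and -0.27 with FGF (edgeR adjusted p = 0.207). For Gabpa, leaving out knockout replicate 2 gave -0.20 (edgeR adjusted p = 0.0105) and -0.27 (edgeR adjusted p = 0.000328).

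Promoters of the nuclear genes were read from RefSeq on GRCm38.p6, from 250 bases before to 50 bases after the start of each gene. Of the 85 tested genes, 70 matched by symbol, with 75 windows. On both strands, the palindromic NRF1 motif, whose letters are the capitals in the Cox6a1 promoter, was in 9.33% of the windows, against 2.01% of 11841 windows of other tested genes and 0.971% of all 32851 windows. The ERR motif TCAAGGTCA was in 2.67%, only 2 windows, against 0.27% and 0.423%. The ETS motif CCGGAAGT was in 6.67%, against 8.34% and 3.89%. Without knockout replicate 2, genes higher in both conditions had 8 windows. Of these, 1 held the NRF1 motif, 1 the ERR motif and 0 the ETS motif. Genes lower in both conditions had 3 windows, of which 1 held the ETS motif and 0 either other motif. One promoter is printed for each motif, taken from genes called in both conditions without knockout replicate 2: Cox6a1 with an NRF1 match that begins 162 bases before the start, Atp5g3 with an ERR match on the minus strand that begins 52 bases before, and Atp5h with an ETS match on the minus strand that begins 39 bases before. Capitals mark the motif, and each sequence is given along the gene's own strand, which is minus in all 3.
Cox6a1, chr5:115348909-115349208: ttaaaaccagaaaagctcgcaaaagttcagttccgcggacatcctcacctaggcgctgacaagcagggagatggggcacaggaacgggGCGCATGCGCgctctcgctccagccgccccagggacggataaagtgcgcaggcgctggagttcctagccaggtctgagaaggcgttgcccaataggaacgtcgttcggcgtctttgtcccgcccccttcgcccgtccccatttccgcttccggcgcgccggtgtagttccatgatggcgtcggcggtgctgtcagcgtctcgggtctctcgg
Atp5g3, chr2:73911277-73911576: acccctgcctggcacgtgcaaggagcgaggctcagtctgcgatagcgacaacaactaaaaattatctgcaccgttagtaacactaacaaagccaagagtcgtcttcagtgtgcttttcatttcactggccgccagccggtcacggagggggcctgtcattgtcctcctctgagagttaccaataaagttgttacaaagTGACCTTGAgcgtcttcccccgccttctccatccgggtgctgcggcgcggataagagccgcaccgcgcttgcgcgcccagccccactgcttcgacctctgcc
Atp5h, chr11:115419870-115420169: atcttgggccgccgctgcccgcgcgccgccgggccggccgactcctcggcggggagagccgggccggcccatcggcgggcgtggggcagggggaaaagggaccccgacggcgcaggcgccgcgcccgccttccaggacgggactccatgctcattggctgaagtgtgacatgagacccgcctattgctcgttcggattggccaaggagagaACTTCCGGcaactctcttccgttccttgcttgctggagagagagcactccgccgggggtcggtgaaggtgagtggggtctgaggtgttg
Cox6a1 stood at 0.23 with FGF and 0.32 without, Atp5g3 at 0.14 and 0.40, and Atp5h at -0.57 and -0.30, as log2 fold changes without knockout replicate 2. A match is a description of these letters and not a site of binding.

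Genes that build and feed the chain were called in both directions. Of all genes tested 40.3% were called with FGF and 45.8% without, and 58.6% and 54.5% without knockout replicate 2. Of 42 tested assembly factors outside the Ndufaf family, 6 were higher and 11 lower with FGF, and 11 higher and 8 lower without FGF, with medians of -0.07 and 0.09, which is close to the share over all genes. The counts without knockout replicate 2 were 9 and 13 with FGF and 12 and 13 without. Sdhaf4, which binds the flavoprotein subunit during assembly of complex II, fell by 1.53 (SE 0.19) and by 1.30 (SE 0.19) on the log2 scale, and Atpaf1, a chaperone of the ATP synthase head, by 0.65 (SE 0.11) and 0.69 (SE 0.11). Coa3, which acts on the synthesis of mt-Co1 protein, was lower in knockout than in control cells with FGF, by 0.54 (SE 0.10). Uqcc2, an assembly factor of complex III, was higher in knockout cells without FGF, by 1.05 (SE 0.16). Cox17, the copper chaperone of complex IV, was the only gene of this list called between FGF and no FGF, with a log2 fold change of 1.31 in knockout cells (SE 0.31, edgeR adjusted p = 0.0468).

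Of 30 genes for the upkeep and expression of mitochondrial DNA, 3 were higher and 7 lower with FGF, and 4 higher and 6 lower without FGF, with medians of -0.08 and -0.06, a smaller share than over all genes. They were, without knockout replicate 2, 4 and 9 with FGF and 5 and 9 without. Lrpprc, which stabilises mitochondrial mRNA, rose by 0.42 (SE 0.08) and 0.33 (SE 0.08). Pnpt1, the mitochondrial polynucleotide phosphorylase that degrades RNA, fell by 0.63 (SE 0.10) in both conditions. The elongation factor gene Tefm was lower in knockout than in control cells without FGF, by 0.75 (SE 0.15). The mitochondrial topoisomerase gene Top1mt was lower in knockout cells with FGF, by 1.05 (SE 0.17). The calls named here for these lists held without knockout replicate 2.

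In the TCA cycle and pyruvate dehydrogenase, 6 of 17 genes were higher and 2 lower with FGF, and 9 higher and 1 lower without FGF, or 10 and 3 in both without knockout replicate 2. Higher were 18% of all genes with FGF and 22.5% without, and lower 22.2% and 23.3%. Without knockout replicate 2, 28.1% of all genes were higher and 30.5% lower with FGF, and 26.3% and 28.2% without. Dlst, of the oxoglutarate dehydrogenase complex, rose by 0.49 (SE 0.08) in both conditions, and Sucla2, of succinyl-CoA synthetase, by 0.44 and 0.51 (SE 0.09 each). Idh3b, of isocitrate dehydrogenase, was higher in knockout cells without FGF by 0.60 (SE 0.10), and Suclg2 in knockout cells with FGF by 0.36 (SE 0.07). Among 20 genes of electron carriers, ubiquinone synthesis and the enzymes that feed ubiquinone, 4 were higher and 4 lower with FGF, and 7 higher and 3 lower without FGF, or 6 and 4, and 5 and 5, without knockout replicate 2. In either direction, 40.3% of all genes were called with FGF and 45.8% without, or 58.6% and 54.5% without that library. Sqor, which passes electrons from sulfide to ubiquinone, rose by 2.56 (SE 0.19) and 2.77 (SE 0.18). Cycs, the gene of cytochrome c, and Coq4 rose by 0.47 (SE 0.07) and 0.67 (SE 0.15) without FGF. Pdss1, which makes the tail of ubiquinone, rose by 0.48 (SE 0.08) with FGF, while Coq8a fell by 1.86 (SE 0.31) with FGF.

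Ribosomal protein genes were counted in the same way. Beside these counts, 18% of all genes tested were higher and 22.2% lower with FGF, and 22.5% and 23.3% without FGF. Without knockout replicate 2 the shares of all genes were 28.1% and 30.5% with FGF, and 26.3% and 28.2% without FGF. Of 77 tested genes of the mitochondrial ribosome, 3 were higher and 16 lower with FGF, and 33 higher and 6 lower without FGF, with medians of -0.07 and 0.24. Without knockout replicate 2 the numbers without FGF were 27 higher and 19 lower and the median 0.10, and with FGF 14 higher and 32 lower. Of 83 cytosolic ribosomal protein genes, 4 were higher and 12 lower with FGF, and 24 higher and 1 lower without FGF, with medians of -0.06 and 0.26. Without that library, 21 were higher and 14 lower without FGF, at a median of 0.07, and 10 higher and 26 lower with FGF. Mrpl38, Mrpl45 and Mrpl10 were lower in knockout than in control cells with FGF, by 0.78, 0.50 and 0.61. Mrpl52, Mrps18a and Mrpl18 were higher in knockout cells without FGF, by 1.00, 0.81 and 0.51.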

How the data were processed

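RNA from 12 libraries of mouse 4T1 cells was sequenced after collagenase digestion of the gels, with stranded polyA libraries per the labels. The authors deposited 1 table of raw counts per gene symbol. Per the submitters' processing notes the builds were mm10 and hg38 and the tools STAR 2.7.9a, featureCounts, FastQC 0.11.9 and, R 4.1.1. The sources used here give neither the strand setting nor the handling of reads with several matches.

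The counts were tested with edgeR 4.0.16 in R 4.3.3 by the quasi-likelihood test, after its filter on low counts by group (12079 genes) and TMM scaling. All 12 libraries entered 1 fit of 4 group means with 8 residual degrees of freedom. Adjusted p-values are Benjamini-Hochberg over all genes tested, with a threshold of 0.05, and an SE is the log2 fold change divided by the square root of F. CPM are TMM-scaled. Alternatives were DESeq2 1.42.0, RLE scaling, no filter, a replicate block, the compared libraries only, a correction for exon length and GC content, mitochondrial genes left out of library sizes, and each library left out. The test was checked on simulated counts. Positions are 1-based, from GENCODE vM21 on mm10, and 105 of 106 genes matched 1 gene model. A stretch counts as shared at 99% identity or more over at least 50 bases. Of 92 nuclear genes with 1 model, 31 shared some sequence and 14 at least 20% of it.

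The genes and lists were chosen with earlier results of these data known. The genes named are all mitochondrial genes; per comparison, up to 3 called nuclear genes per complex with the smallest adjusted p; the gene with the highest level per exon length in each complex; tissue forms beside their partners; genes that did not pass the filter; up to 3 called genes per list; and the 3 with the largest shift without knockout replicate 2. Atp5f1, Cox6a1, Gabpa and the genes called in both conditions were named after their values were seen. The values of 1 gene are not reported here. No protein sequences were used here.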

Additional observations from a re-analysis of the deposited data

How the results depend on the processing

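The 33 nuclear genes called without FGF became 12 in a fit of the compared libraries only, 59 with the length and GC correction, 61 with that correction and the replicate block together, and 15 to 51 when each library was left out in turn. The 8 called with FGF became 27 in the compared libraries only, 36 with the correction, 38 with the correction and the block, and 4 to 31 when each library was left out. The count of 31 came without knockout replicate 2, and that of 4 without control replicate 1 or 3 or knockout replicate 1 or 3 of the FGF groups. The share of all genes called moved as well. Without FGF it was 45.8% in the main fit, 33.1% in the compared libraries only and 56.1% with the correction. With FGF these shares were 40.3%, 57% and 53%. Leaving out knockout replicate 2 gave 54.5% without FGF and 58.6% with FGF. Shares for the other fits are not given here. With the correction the median of all genes moved to 0.12 without FGF and 0.10 with FGF on the log2 scale, and that of the nuclear genes to 0.33 and 0.16. The cause of these changes was not tested. The replicate block alone gave 42 and 10 nuclear genes, and 4 and 5 mitochondrial genes. Same-numbered libraries correlated at -0.088 to 0.344 in their deviations from group means, and differently numbered ones at -0.3 to 0.174. With 3 libraries a group these values cannot decide whether the numbers pair the libraries, and the labels do not say. Mitochondrial counts stayed within 1.5 times in every alternative, and no fold change of a named gene changed sign between the reported value and an alternative where either was called. Fold changes called in neither did change sign: without knockout replicate 2, mt-Nd6 stood at 0.01 and mt-Cytb at -0.02 without FGF, and with the correction mt-Nd6 at 0.07. The interaction could not be fitted in the compared libraries only. The few counts of the genes between mt-Co1 and mt-Nd4 limit the precision of their values.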
